A study of Mus musculus with 2 samples.

Results

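The set comprised 10 genes of spermatogonia and of entry into meiosis, followed along their promoter loci in an experiment that mapped the transcription factor CREM in adult mouse testis: Stra8, Dazl, Kit, Sohlh1, Sohlh2, Dmrt1, Bcl6b, Etv5, Id4 and Zbtb16. They were chosen by name, as every probe whose gene name on the arrays is one of these symbols, with earlier results of these data known. All 10 were found, among 17306 genes with at least 1 window of neighbouring probes, and they carried 383 of the 474380 probes on the arrays, of which 368 were used. Germ cells pooled from 5 testes of adult male C57BL/6 mice were fixed, and their sheared chromatin was precipitated either with an antibody against CREM (sc-440) or, as the control, with goat IgG, per the labels. The DNA of the CREM precipitate carried Cy5 and that of the IgG precipitate Cy3, and both were hybridised together to promoter arrays of the mm9 build. Each of the 2 arrays holds its own set of loci, with Stra8, Kit, Sohlh1 and Sohlh2 on array 1 and the other 6 genes on array 2, and the design has no replicates.

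Spermatogonia are the mitotic germ cells at the base of the seminiferous tubule, where a few act as stem cells and the rest divide, differentiate and enter meiosis under retinoic acid. Stem cell genes such as Id4, Etv5, Bcl6b and Zbtb16 give way to Kit, Sohlh1 and Sohlh2 as the cells differentiate, Dmrt1 holds back meiotic entry, and Stra8, with Dazl present, is switched on as meiosis begins. CREM is a bZIP factor that binds the cAMP response element, and its activator form is best known from the haploid spermatids that come after meiosis, where it drives genes of sperm formation. The labels give the material as pooled germ cells, so a ratio averages over all the cell types in the preparation, and because genomic DNA was hybridised no marker level can show which cells contributed.

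Values are log2 ratios of the processed CREM signal over the processed IgG signal, centred on each array's median. A window is 3 neighbouring probes whose starts lie at most 500 bp apart, and its value is the median of the 3. Windows at 1 or more, a 2-fold difference, are on the CREM side, and windows at -1 or less are on the IgG side, the background read in the same way. The CREM channel was well above background at 96.3% and 95.5% of probes on the 2 arrays and the IgG channel at 77.4% and 78.5%, and a probe is called bright below where both its channels passed. Control probes spotted many times had a median SD of 0.27 on array 1 and 0.33 on array 2, which is scatter within an array. The spread between animals or precipitations was not measured, so no p-value is given for any difference. Over both arrays 5.99% of windows were CREM-side and 4.56% were IgG-side; of the 314 windows of the set 22 and 25 were.

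The 2 loci that stood farthest from the centre were Bcl6b, on the CREM side, and Stra8, on the IgG side, and the probes of their extreme windows are shown here because the account turns on them. Letters run 5′ to 3′ on the forward strand of mm9 as the array design gives them, and capitals mark each CG dinucleotide. The 3 Bcl6b probes had ratios of 2.63, 2.19 and 2.87 in the order shown, and the 3 Stra8 probes -1.74, -2.90 and -2.76.
Bcl6b probe at chr11:70041864-70041922: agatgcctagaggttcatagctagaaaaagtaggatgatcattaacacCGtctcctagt
Bcl6b probe at chr11:70042092-70042139: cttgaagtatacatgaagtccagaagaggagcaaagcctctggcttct
Bcl6b probe at chr11:70042226-70042270: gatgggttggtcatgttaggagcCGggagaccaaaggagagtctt
Stra8 probe at chr6:34870644-34870697: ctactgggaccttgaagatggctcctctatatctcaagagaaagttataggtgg
Stra8 probe at chr6:34870778-34870826: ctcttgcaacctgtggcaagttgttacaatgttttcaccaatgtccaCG
Stra8 probe at chr6:34870905-34870954: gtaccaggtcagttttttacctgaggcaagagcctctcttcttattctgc
The letters hold few CG dinucleotides in both loci: 2 over the 3 Bcl6b probes and 1 over the 3 Stra8 probes. Neither trio holds the cAMP response element TGACGTCA or its core, TGACG or CGTCA.

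Over the whole set, 4 of 10 genes had a window on the CREM side (Dazl, Dmrt1, Bcl6b and Id4), where 34.5% of all genes did. On the IgG side 7 of 10 had one (Stra8, Dazl, Kit, Sohlh1, Dmrt1, Etv5 and Id4), where 33.7% of all genes did; this count was 1 under normexp background correction (Stra8), 3 with the trend of ratio on GC content removed and 4 with the authors' deposited values. The CREM-side count was 2 (Bcl6b and Id4) with the authors' deposited values and also with bright probes only, those well above background in both channels. Dazl, Dmrt1 and Id4 had windows on both sides, against 12.1% of all genes, and Sohlh2 and Zbtb16 had none on either, against 43.9%. These loci are tiled more densely than most, with 23 to 54 windows and a median of 27.5 against 19.0 over all genes, and more windows give more chances of an extreme one. Among the 6260 genes with as many windows as these, 39.3% had a CREM-side window and 47.3% an IgG-side window. The median highest window of the 10 was 0.78, beside 0.77 over all genes and 0.86 over genes with as many windows, so it lay at the level of the rest of the arrays. A CREM-side highest window with 3 bright probes was rarer, at 9.81% of genes, and in the set Bcl6b alone had one; an IgG-side lowest window with 3 bright probes was found in 27.6% of genes and in Stra8, Kit, Dmrt1, Etv5 and Id4. The median lowest window was -1.12, beside -0.76 over all genes and -0.96 over genes with as many windows.

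**Figure D1:**
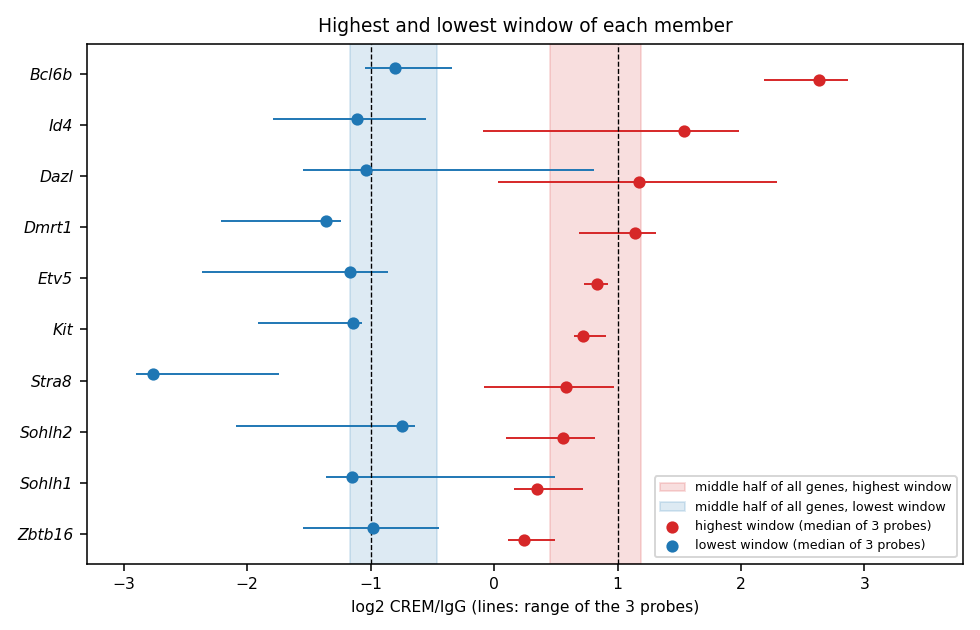
Highest (red) and lowest (blue) window of each gene as log2 CREM/IgG, with lines over the range of its 3 probes; shaded bands give the interquartile range of all genes, 0.45 to 1.19 for the highest and -1.17 to -0.46 for the lowest window. Bcl6b lies beyond the red band at 2.63 and Stra8 beyond the blue band at -2.76, while the highest windows of Dazl, Dmrt1, Etv5, Kit, Stra8 and Sohlh2 fall within the red band.

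Bcl6b encodes a zinc finger repressor that GDNF signalling induces in spermatogonial stem cells. It had 54 windows over 56 probes, of which 12 were CREM-side and none IgG-side, and 13 of its probes stood at 1 or more. Over all genes 0.636% had 12 or more such windows. This share was not matched for tiling: Bcl6b had the most windows of the 10 genes, against a median of 19.0 over all genes. Neighbouring windows also share probes. The 12 windows formed 2 stretches, chr11:70041653-70043839 with 10 windows and chr11:70044327-70044935 with 2.

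Within the longer Bcl6b stretch of 2187 bp, the 12 probes ran from 0.37 to 2.87 with a median of 1.37, and 11 of them were bright. The processed signal of the CREM precipitate was 6740, 3489 and 11397 at the 3 probes of the highest window, against 1078, 756 and 1542 for IgG. Both channels were thus well measured there. The ratios then descended along the forward strand to 1.48, 1.25, 1.13 and 1.03, with 1 probe at 0.37 among the high ones. Its highest window of 2.63 was above those of 98.7% of genes, and 23 of the 12686 windows of like GC content were higher. Over 13 other processing settings the highest Bcl6b window stayed between 2.29 and 2.70. Probes within 3 kb of the Bcl6b tiling carry the names Slc16a13 and 0610010K14Rik, and no start of Bcl6b was located, so the stretch is given by its position alone.

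**Figure D2:**
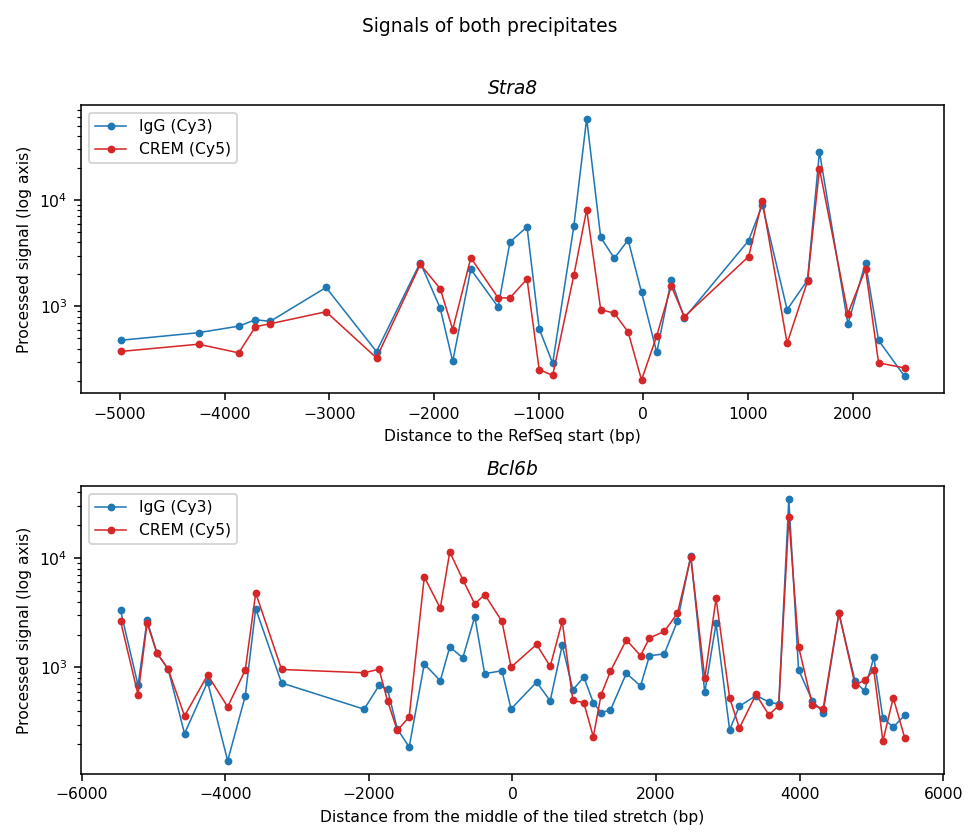
Processed signal of each probe in the CREM (red) and IgG (blue) channel along Stra8 (top, distance to the RefSeq start) and Bcl6b (bottom, distance from the middle of the tiling), on a log axis; points are probes and lines only join neighbours. At Bcl6b the red points lie above the blue over the 2187 bp stretch, apart from which single red points also rise, while at Stra8 the blue points lie above the red over most of the 1414 bp before the start.

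Id4 encodes a helix-loop-helix protein without a DNA-binding region that marks the stem cell fraction. Its 43 windows held 7 on the CREM side, in 2 stretches upstream of the start. The nearer one, chr13:48355134-48355916, lay 1351 to 569 bp upstream and held probes at 1.01, 0.31, 1.51, 1.55, 1.29 and 0.16, of which 4 of 6 were bright. The farther one, chr13:48353040-48353809, lay 3445 to 2676 bp upstream and held the highest window of 1.54, from probes at -0.09, 1.54 and 1.98. In that window IgG signals were 3042, 68 and 64, and only 1 of the 3 probes was bright. The 2 high ratios there thus rest on very low IgG signals, and with bright probes only the highest Id4 window was 1.09. A lone probe just downstream of the start stood at 1.40, with 5888 for CREM and 2198 for IgG, between neighbours at -0.31 and -0.65. On the IgG side Id4 had 1 window of -1.11, 445 to 924 bp downstream, led by a probe of 73.3% GC at -1.79; under normexp the lowest Id4 window was -0.46 and the highest 0.99.

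Etv5 encodes an ETS factor that acts downstream of GDNF and FGF signals in stem cell renewal. None of its 35 windows reached the CREM side, and its highest was 0.83 at chr16:22441135-22441437, from probes at 0.73, 0.92 and 0.83 that were all bright. Upstream of the start, from chr16:22439957 to chr16:22443089, every probe read above 0, and the median over all 41 probes was 0.39. Single probes downstream of the start reached 1.89 and 2.33, the second with an IgG signal of only 66. Around the start Etv5 turned to the IgG side, with -0.86, -1.17 and -2.37 at the 3 probes of its lowest window, chr16:22439069-22439686. Another probe, at -2.41, lay 1129 bp downstream of the start used here and near a second RefSeq start at chr16:22438441. The GC content of the lowest window was 66.7%, and 62.8% of the 561 windows of like GC content were lower still. Under normexp the lowest Etv5 window was -0.67 and the highest 1.20, so Etv5 changed from the IgG-side to the CREM-side genes. The lowest probe of that window, which lies over the start, is shown for its letters, with CG in capitals.
Etv5 probe at chr16:22439642-22439686: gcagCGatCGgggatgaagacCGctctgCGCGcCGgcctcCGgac
It holds 7 CG dinucleotides in 45 bases.

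Zbtb16 encodes PLZF, a zinc finger repressor needed to keep the stem cell pool. Its 28 windows stayed between -0.98 and 0.24, so it had the lowest highest window of the 10 genes, and 11.4% of all genes had a lower one. Across its 34 probes the median was -0.26 and the highest single value was 0.78. Its 3 probes at or below -1, with -1.55, -1.45 and -1.59, had a GC content of 62.2%, 68.9% and 66.7%. These probes lay apart, so no window's median reached -1, and the lowest window, chr9:48642826-48643185, was just inside the limit. With no filter on background the lowest Zbtb16 window was -1.54, which is IgG-side.

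**Figure D3:**
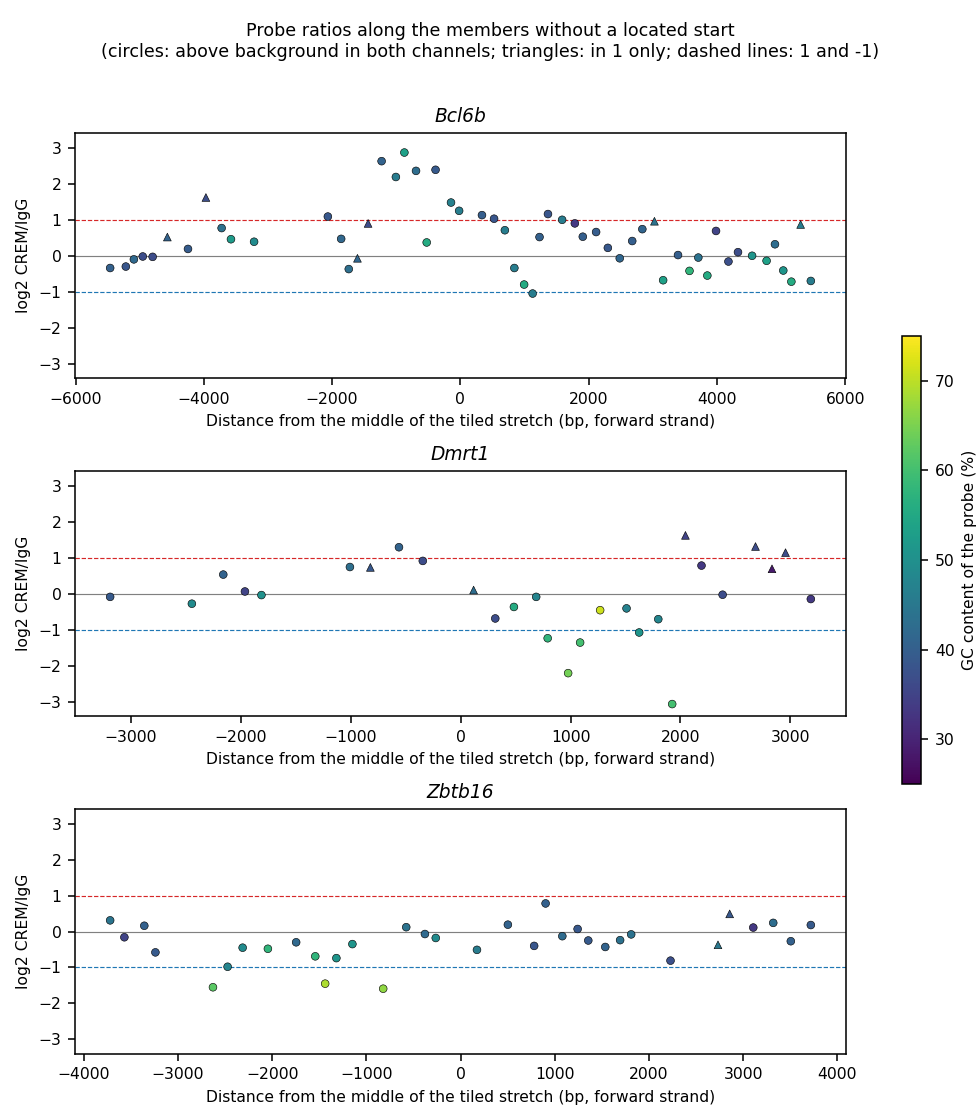
Log2 CREM/IgG of every probe along Bcl6b, Dmrt1 and Zbtb16, for which no RefSeq start was located, against the distance from the middle of the tiling; colour gives GC content, circles are bright probes and triangles those measured in 1 channel only. Bcl6b has a run of probes from 0.37 to 2.87, Dmrt1 a trough of GC-rich probes down to -3.07, and Zbtb16 probes lie between -1.59 and 0.78, the 3 at or below -1 being GC-rich.

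Kit encodes the receptor tyrosine kinase for stem cell factor, which appears as spermatogonia differentiate. It had 26 windows, of which none was CREM-side and 3 were IgG-side, and these joined to chr5:75971138-75971885, 126 to 873 bp downstream of the start. The 5 probes there read -0.48, -1.07, -1.91, -1.14 and -0.99, and all 5 were bright. The trio of its lowest window, -1.14, is shown because it was GC-rich (61.5%), again with CG in capitals and in the order -1.07, -1.91, -1.14.
Kit probe at chr5:75971334-75971378: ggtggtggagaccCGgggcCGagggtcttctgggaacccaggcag
Kit probe at chr5:75971506-75971550: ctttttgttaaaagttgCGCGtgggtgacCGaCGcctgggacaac
Kit probe at chr5:75971628-75971672: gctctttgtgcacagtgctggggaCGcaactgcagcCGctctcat
Windows of like GC content had a median of -1.02, and 40.5% of the 1906 of them were lower than that of Kit, so its value lay within the usual range for such letters. With the trend of ratio on GC content removed, the lowest window anywhere in Kit was -0.91, and under normexp background correction it was -0.63, so Kit had no IgG-side window in either. Its highest window was 0.72, from probes at 0.65, 0.91 and 0.72 at chr5:75973023-75973453, and under normexp the highest Kit window was 1.09.

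Sohlh1 and Sohlh2 encode the bHLH factors that drive spermatogonial differentiation, partly through Kit. Both stayed low on the CREM side, with highest windows of 0.35 (0.16 to 0.72 over its probes) and 0.56 (0.10 to 0.82). Sohlh1 had 2 IgG-side windows, 1824 to 2280 bp downstream of its start, and the lower of them was -1.15. That window rested on probes at 0.49, -1.36 and -1.15, of which 1 was bright, and its GC content was 45.4%. Without the probes that were dim in 1 channel, the lowest Sohlh1 window was -0.24. At the start itself a single Sohlh1 probe read -1.28. Sohlh2 likewise had its dip at the start, with probes at -0.64, -2.09 and -0.75 in a window of -0.75 and 63.7% GC, while 79.8% of the windows of like GC content were lower.

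Dmrt1 encodes a DM-domain factor that keeps spermatogonia mitotic until they are ready for meiosis. Of its 23 windows 4 were IgG-side and 1 was CREM-side. The IgG-side windows lay at chr19:25580129-25580755, where 5 bright probes read -0.09, -1.24, -2.21, -1.36 and -0.46, and at chr19:25581066-25581410, which ended in the lowest probe of all 10 genes, -3.07. That probe had 18239 for IgG and 2205 for CREM and was of 60.0% GC. The CREM-side window, 1.14 at chr19:25582116-25582448, consisted of 3 probes at 1.31, 0.69 and 1.14, none of them bright, with IgG signals of 61, 179 and 194. The highest Dmrt1 window was under 1 in 4 of the 13 other settings, with 0.47 under normexp, and the lowest was then -0.56.

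Dazl encodes the RNA-binding protein that licenses germ cells to respond to retinoic acid. Its locus changed sides across the start. Upstream, the 4 probes of chr17:50433053-50433835 read 0.03, 2.29, 1.17 and 0.79 in forward order, and its highest window was 1.17. The probes at 2.29 and 1.17 had IgG signals of 146 and 80, and with bright probes only the highest Dazl window was 0.86. Downstream of the start, 5 probes at -1.75, -0.99, -1.04, -1.55 and 0.81 gave 3 IgG-side windows, the lowest -1.04. These 5 probes averaged 53.9% GC. The probe at 0.81, of 35.0% GC, had an IgG signal of 146 and was not bright. The highest Dazl window was at or above 1 in 8 of the 13 other settings and the lowest at or below -1 in 10.

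Stra8 encodes the retinoic acid target that marks and promotes the start of meiosis. It gave 10 of the 25 IgG-side windows of the set and no CREM-side window, and 0.162% of genes had 10 or more IgG-side windows. That share too is over all genes and was not matched for tiling, while Stra8 had 27 windows. They joined to a stretch of 1570 bp, chr6:34869534-34871103, from 1414 bp upstream of the start to 155 bp downstream. Toward the start its probes read 0.26, -1.77, -1.65, -1.30, -0.41, -1.55, -2.87, -2.28, -1.74, -2.90 and -2.76, and the next probe, just past the start, read 0.50. Of these 12 probes 11 were bright. The change from -2.76 to 0.50 fell between neighbouring probes on either side of the start. IgG signals exceeded CREM signals at every probe from -1.77 to -2.76: 58356 against 8124 at the probe of -2.87, 4211 against 573 at that of -2.90, and 1354 against 203 at that of -2.76.

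The 12 probes of the Stra8 stretch averaged 42.0% GC, which leaves out the gaps between them. The 250 RefSeq bases upstream of the start, gaps included, were 54.8% GC. In the GC class of its lowest window (45.1% GC) the median window was 0.02 and none of the 16673 windows was lower. Among Stra8 probes under 40% GC, 4 of 11 stood at -1 or less, where 2.26% of all probes did, and among those of 40% to 50% GC 5 of 17, where 2.74% did. Removing the GC trend left its lowest window at -2.69, and over 13 other settings it ranged from -2.76 to -1.14, at or below -1 in all of them. Only 30 genes had a lower lowest window. Probes within 3 kb of the Stra8 tiling carry the name Wdr91. The stretch was measured on 1 array, and its cause was not tested.

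The 250 bases upstream of the Stra8 start are shown as RefSeq gives them (GRCm38.p6, forward strand, 5′ to 3′), since the trough covers them; capitals mark the letters that the array's probes at -2.90 and -2.76 cover.
Stra8 promoter at chr6:34920698-34920947: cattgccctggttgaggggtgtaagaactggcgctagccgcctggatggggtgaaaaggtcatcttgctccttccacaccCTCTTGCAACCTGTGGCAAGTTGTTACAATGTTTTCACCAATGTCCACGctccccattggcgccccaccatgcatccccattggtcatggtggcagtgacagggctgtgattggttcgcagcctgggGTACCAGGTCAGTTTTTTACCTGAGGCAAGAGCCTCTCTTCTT
The following motifs were searched on both strands in the 300-base RefSeq promoters, which run from 250 bases before to 50 after a start, and 9 entries of 7 of the genes were held there. The full element TGACGTCA was in 0 of the 9, and in 1.79% of 32851 promoters. Its core, TGACG or CGTCA, which every full element also holds, was in 4 entries, of Dazl, Id4, Sohlh2 and Stra8, and in 20.8% of all promoters. The nuclear receptor hexamer, AGGTCA or TGACCT, which retinoic acid receptors can bind in pairs, was in 2 entries, of Sohlh1 and Stra8, and in 16.3% of all promoters. In Stra8 AGGTCA begins 194 and 38 bases upstream of the start, the nearer one within the probe of -2.76, and CGTCA begins 32 bases downstream. Bcl6b, Dmrt1 and Zbtb16 were not among the entries.

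**Figure D4:**
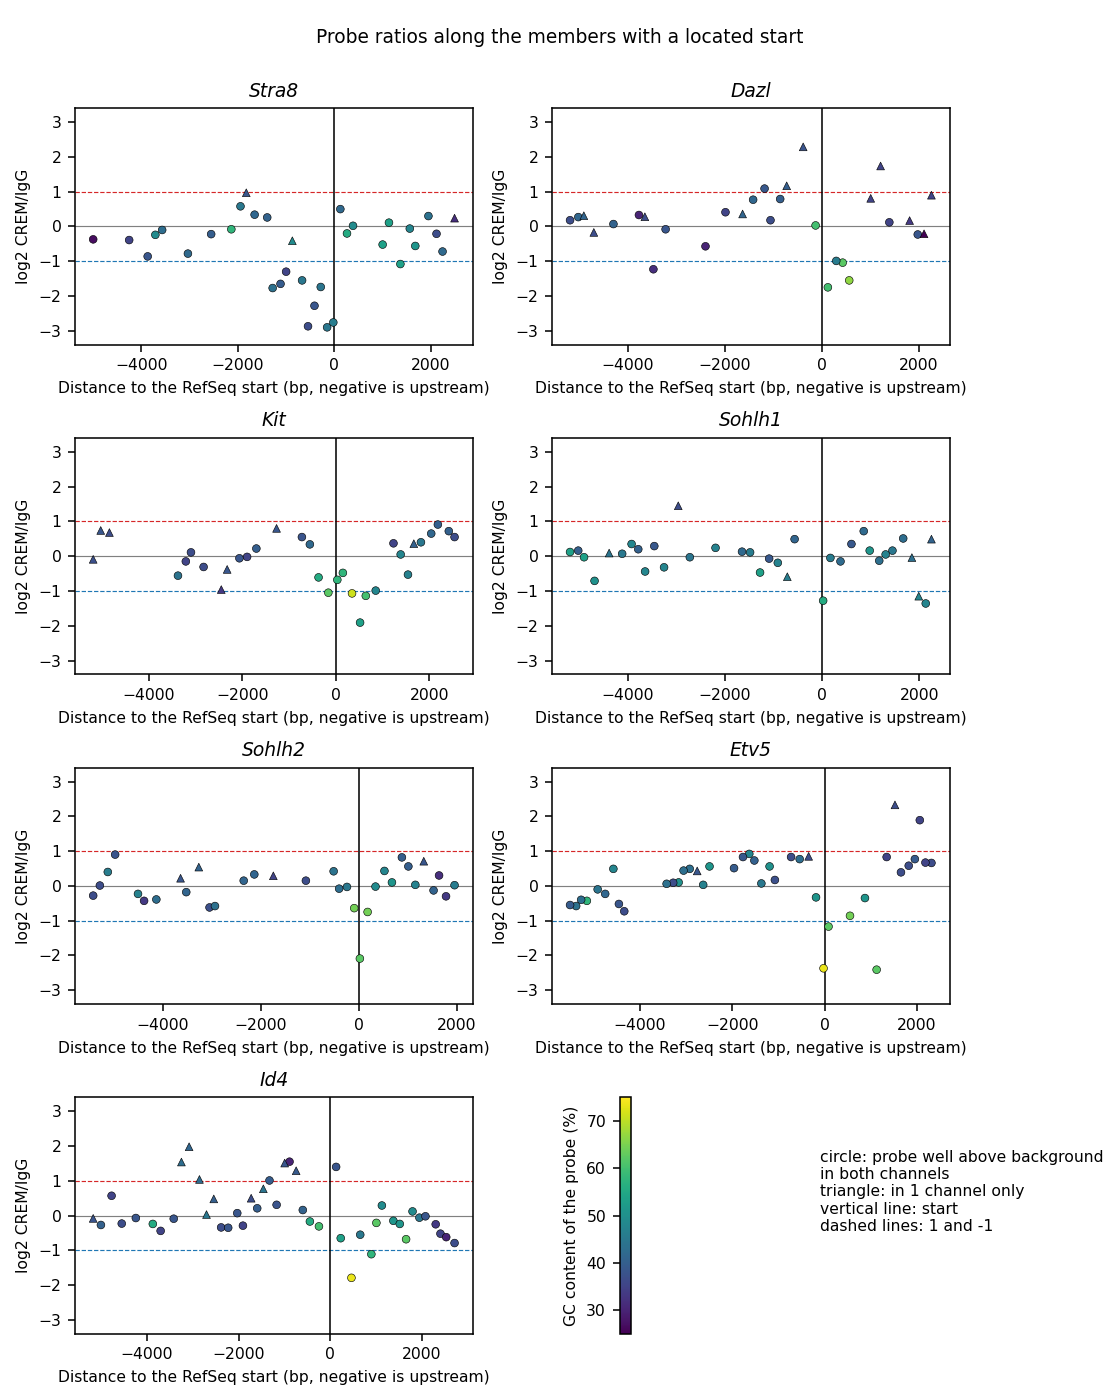
Log2 CREM/IgG of every probe against its distance to the RefSeq start for the 7 genes with a located start (negative is upstream); colour gives GC content, circles are bright probes and triangles those measured in 1 channel only. Stra8 falls to -2.90 over the last 1414 bp upstream, whereas Dazl, Kit, Sohlh2, Etv5 and Id4 have their lowest windows at or downstream of the start.

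Probes were then pooled by distance across the 7 genes with a located start. Starts were located for 10971 genes in all, of which 10517 had probes from 0 to 500 bp downstream. In that range the median ratio of the members' 19 probes was -0.68, against -0.39 over all genes. There 36.8% of the members' probes stood at -1 or less, against 27.1%. From 500 bp upstream to the start the median was -0.47 against -0.01, but without Stra8 it was -0.24. From 1000 to 500 bp upstream the members' median was 0.46 against 0.23, and 22.2% of 18 probes stood at 1 or more against 18.1%. These 4 probes belonged to Dazl and Id4, and only that of Id4 at 1.55 was bright. From 500 to 1000 bp downstream the members' median was -0.45, with 28.6% of 14 probes at -1 or less, against 0.12 and 8.56% over all genes. These 14 probes came from 6 genes: those of Sohlh1 and Sohlh2 all read above 0, and those of Dazl, Kit, Etv5 and Id4 below it. Their mean GC content was 51.2%, against 44.4% over all genes. From 500 bp upstream to the start it was 51.1% against 46.3%, and from 0 to 500 bp downstream 55.1% against 52.4%.

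GC content tracked the ratio in the members as in the arrays as a whole. Of the members' 25 probes of 60% GC or more, 17 (68.0%) stood at -1 or less with a median of -1.17, against 54.0% and -1.08 of all such probes. Of the 141 under 40% GC, 21 (14.9%) stood at 1 or more, against 12.7% of all such probes. Leaving Stra8 out, the IgG-side windows of the set averaged 57.3% GC, near the 58.5% of all IgG-side windows, and with it 51.2%. CREM-side windows averaged 41.9%, beside 41.0% over all. With the trend of ratio on GC content removed, 3 of the 10 genes (Stra8, Dazl and Sohlh1) had an IgG-side window, where 12.8% of all genes did.

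**Figure D5:**
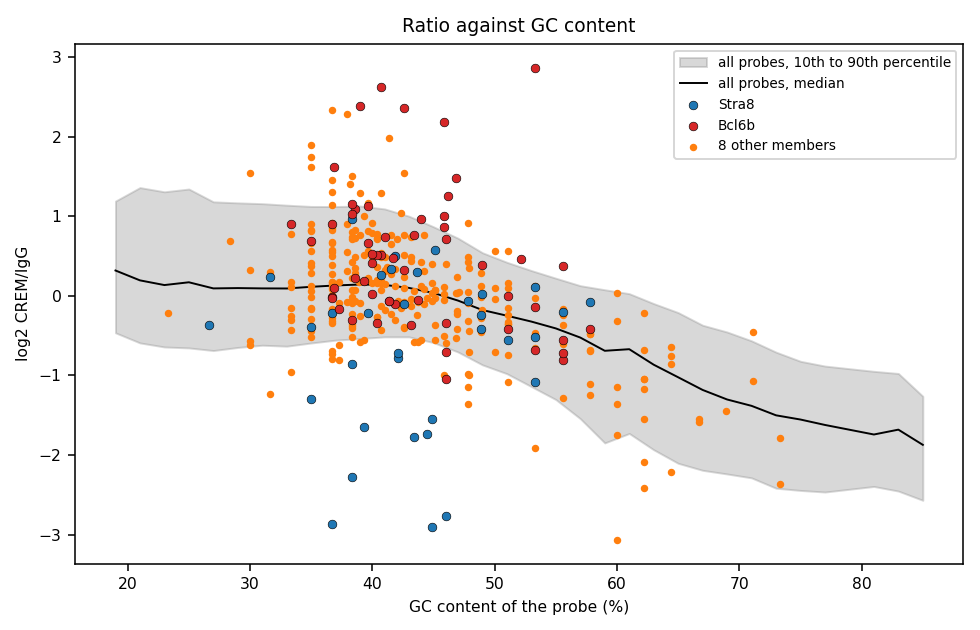
Log2 CREM/IgG of every probe of the 10 genes against its GC content, over the median (line) and the 10th to 90th percentile (grey) of all probes; Stra8 is blue, Bcl6b red and the other 8 genes orange. Orange points follow the fall of the line at high GC, while 9 Stra8 probes at or below -1 lie under 50% GC, far below the band, and the highest Bcl6b probes lie far above it.

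The element that CREM is known for was looked for in the windows that stood out. Only the letters of the probes were searched, not the gaps between them, so a window holds a motif here where any of its 3 probes does. The CGTCA just downstream of the Stra8 start lies in such a gap, inside an IgG-side window, and is not counted. By probe letters the core TGACG or CGTCA was in none of the 22 CREM-side and none of the 25 IgG-side windows. Of all 314 windows 22 (7.01%) held it. Over the whole arrays it was in 10.5% of CREM-side windows, in 14.1% of IgG-side windows and in 6.46% of all windows. The full TGACGTCA was in none of the 314 windows and in 0.748% of all CREM-side windows. A bright core-bearing probe upstream of the start is shown for each of 3 genes, with the core in capitals, to set letters beside ratios.
Sohlh2 probe at chr3:54985852-54985896: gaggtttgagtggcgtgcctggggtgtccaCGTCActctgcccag
Id4 probe at chr13:48356220-48356264: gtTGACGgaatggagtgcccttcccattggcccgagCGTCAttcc
Etv5 probe at chr16:22441250-22441295: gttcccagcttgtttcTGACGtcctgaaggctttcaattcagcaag
Their ratios were -0.64 for Sohlh2, -0.31 for Id4, which carries the core on both strands, and 0.92 for Etv5. Other core-bearing probes read from -0.35 in Zbtb16 to 0.78 in Dmrt1, so none of the 9 reached 1.

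The wider pathways were read through gene lists. Their background was the share of all genes with a CREM-side window (34.5%) or an IgG-side window (33.7%). That background is not matched for tiling, and many listed genes have more windows than the median of 19.0 over all genes. Among the 6260 genes with 23 to 54 windows, the shares were higher, at 39.3% and 47.3%. The lists were not matched in this way, so the effect of tiling on their shares was not tested. Of 27 other spermatogonial genes measured, 5 (18.5%) had a CREM-side window and 17 (63.0%) an IgG-side window, with median highest and lowest windows of 0.70 and -1.33. Foxo1, a stem cell maintenance factor, had the highest window among those with bright probes (1.06), followed by Egr2 (0.98). Dnmt3b, a de novo DNA methyltransferase, had the lowest (-2.45), followed by Ret, the GDNF co-receptor (-1.97). The GC content of these lowest windows was 64.8% for Dnmt3b and 60.7% for Ret. Over the other IgG-side lowest windows of the list it ranged from 32.2% to 73.3%.

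Of 19 genes of retinoic acid supply and reception, 3 (15.8%) had a CREM-side and 9 (47.4%) an IgG-side window. The lowest were those of Cyp26c1, a retinoic acid hydroxylase, at -2.42, and Rdh10, a retinol dehydrogenase, at -2.28. The highest with bright probes were Dhrs3 at 0.99 and Rbp4 at 0.95, both under the threshold. Of 16 genes of meiotic entry and early prophase, 4 (25%) had a CREM-side and 5 (31.3%) an IgG-side window. Msh5, of crossover formation, reached 1.61 with 8 CREM-side windows, and Rec8, the meiotic cohesin, 1.53 with 3. Spo11, which makes the meiotic breaks, and Sycp1, of the synaptonemal complex, both had a lowest window of -1.15.

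Among 14 germ cell RNA-binding and KIT partner genes, 8 (57.1%) had a CREM-side and 7 (50%) an IgG-side window, though only 1 of the 8 highest windows had 3 bright probes. That gene was Mael, a piRNA pathway factor, at 1.76; the next among bright ones was Dnd1 at 0.31. Boll, a relative of Dazl that acts in meiosis and after, was on the IgG side in 7 of 16 windows, with a lowest window of -2.08, and Pum2, which binds RNA with Dazl's family, was at -2.45. Among 17 relatives of the 10 genes by family, 10 (58.8%) had a CREM-side window and 10 an IgG-side window. Here Id3 stood at 2.23 with 9 CREM-side windows and Id2 at 1.35 with 6, both from 3 bright probes. Dmrta2 at -2.15 and Dmrta1 at -1.67 gave the lowest windows with 3 bright probes. Beside them, Id4 had 7 CREM-side windows and Dazl 3 IgG-side windows.

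Marker genes of the somatic testis cells were read in the same way, as loci that are not germ cell genes. Of 16 Sertoli genes 2 (12.5%) had a CREM-side and 4 (25%) an IgG-side window, with Fabp3 at 0.67 and Trf at 0.73 as the highest bright windows and Wt1 at -2.16 and Sox9 at -1.61 as the lowest bright ones. Of 11 Leydig genes 3 had a CREM-side and 4 an IgG-side window, with Insl3 at 1.09 and -1.86, Hsd17b3 at 0.51 and Fdx1 at -2.13. Crem itself, the gene of the precipitated factor, had 6 windows, the highest 0.63 and the lowest -0.81, so it was on neither side.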

How the data were processed

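CREM and goat IgG precipitates of pooled adult testis germ cells were hybridised to 2 promoter arrays (CREM in Cy5, IgG in Cy3), 1 sample each. Per the file headers, the authors read the arrays with Agilent Feature Extraction 10.7.1.1 in mm9 coordinates, and the deposited intensity columns hold background-subtracted, dye-normalised processed signals. Per the file headers, LogRatio is log10 of Cy5 over Cy3. The deposited flags, with no unit other than 0 and 1, mark outlier, saturated and well-above-background spots, per the file headers. The deposited log2 ratios of the authors were returned by background subtraction and limma's loess (largest difference 5e-08), and per the submitters' processing notes R 2.10.1 and limma were used.

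Here log2 of processed Cy5 over Cy3 was centred on each array's median with no loess, in Python 3.11.15 and pandas 2.3.3, with R 4.3.3 and limma 3.58.1 for the alternatives. Control spots, outliers, probes lacking a position and probes with neither channel well above background were left out, leaving 228277 and 226404 probes. Probes measured in 1 channel stayed in. A window belongs to the gene of its middle probe, and windows sharing a probe form a stretch. GC content of windows and stretches was taken from the probe letters only, and it was compared in bins of 2%. The window script was checked on simulated data. The number of arrays limits the precision, and no test across arrays was possible.

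Starts were found by matching probe letters to RefSeq promoters (GRCm38.p6, names and sequences only) and carried to mm9, which assumes no insertion between the builds; for Id4 the match was partial. Where a gene has several starts, the first entry was used. Exons and introns are not stated. All 10 genes are named with their highest and lowest windows; from each list the 2 highest and 2 lowest windows with 3 bright probes are named, and Crem. The genes and lists were chosen with earlier results of these data known.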

Additional observations from a re-analysis of the deposited data

How the results depend on the processing

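The 4 summaries were the genes with a CREM-side window, the genes with an IgG-side window, and the median highest and median lowest window. Of their 56 values under other settings, 47 stayed near the main value and 9 moved. A count was near if it lay within 1.5-fold of the main count. A window value was near if it differed by less than 0.3, the control-probe SD averaged over the 2 arrays. Of 260 values of single genes' windows, 223 stayed and 37 moved. The number of genes on the IgG side was 1 under normexp background correction, 4 with the authors' deposited values, 3 with the GC trend removed and 1 at a threshold of 1.5, against 7. The number on the CREM side was 2 with the authors' deposited values, 2 with bright probes only and 2 at a threshold of 1.5, against 4. The median lowest window was -0.60 under normexp and -0.79 with the GC trend removed, against -1.12. Over all genes, normexp likewise left 3.7% on the IgG side and 16.2% on the CREM side. Under normexp the genes on the CREM side were Kit, Bcl6b and Etv5, so Dazl, Dmrt1 and Id4 were lost and 2 others entered. Bcl6b on the CREM side and Stra8 on the IgG side held in every setting run. Omitting saturated spots, omitting the centring and allowing gaps of 1000 bp left both counts at 4 and 7. No paired analysis was possible because each array is a single sample with its own loci and no number is shared between groups. Where the IgG signal is near background, as at the highest windows of Id4, Dazl and Dmrt1, the size of the ratio is poorly determined.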
